A study of Mus musculus with 2 samples.

Results

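The 10 genes described here encode serine/arginine-rich (SR) splicing factors and the related Tra2 proteins: Srsf1, Srsf2, Srsf3, Srsf4, Srsf5, Srsf6, Srsf7, Srsf11, Tra2a and Tra2b. They were chosen by name as SR and Tra2 genes, and are 10 of the 43346 annotated genes in the deposited gene tables. Their 60 transcripts, of 103639 in the transcript tables, were sorted by annotated biotype into 22 protein_coding, 13 nonsense_mediated_decay, 20 retained_intron and 5 other transcripts. The tissue was neural tube, which becomes brain and spinal cord, taken at 15.5 days from mouse embryos of the B6NCrl strain. Total RNA longer than 200 nucleotides was sequenced in 2 biological replicates, each a pool of embryos of both sexes (78 embryos in replicate 1, 62 in replicate 2). Both libraries belong to the same group, with no treatment or genotype to compare, so each value below is a level or a share, given per library or as a mean ± SD (n = 2), and no test was possible. The SD measures the spread between pools, not between embryos.

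SR proteins bind short RNA motifs in exons through RNA recognition motifs and recruit the splicing machinery through a domain of arginine-serine repeats. Most SR genes also make transcripts that cannot yield the full protein. In some, an extra "poison" exon brings in an early stop codon, which marks the RNA for nonsense-mediated decay in the cytoplasm; in others an intron stays in the RNA and can hold it in the nucleus. SR proteins promote such splicing of their own and each other's RNA, a feedback that limits their level. Total RNA from whole tissue holds nuclear and cytoplasmic RNA together.

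The libraries held 34678043 and 41355355 expected counts in annotated genes, of which the 10 genes took 97023 and 106333. Markers of neurons (6 of 6) and of spinal position (4 of 4) were detected in both libraries at 1 TPM or more (TPM is the authors' length-corrected unit of abundance). They summed to 3957 and 293 TPM in replicate 1 and to 4709 and 363 TPM in replicate 2, log2 ratios of −0.25 and −0.31, while the ratio of the summed SR level was 0.13. Replicate 1 also held 396 TPM of summed thymus and T-cell markers against 9.49 in replicate 2, and 619 TPM of epithelial markers against 6.67. Markers of cycling cells summed to 458 and 215 TPM, and those of red cells to 4771 and 4125 TPM. The part of these differences in any SR value was not tested, and in bulk tissue fewer cells of a type and less RNA per cell cannot be told apart.

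All 10 genes were expressed well above the detection limit, and their order by level was the same in TPM and in counts scaled to library size (CPM). Srsf3 and Srsf2 stood at the top. Srsf3 (ENSMUSG00000071172.8; chromosome 17, 29032628 to 29043373), an SR protein that also acts in mRNA export, measured 487 TPM in replicate 1 and 439 TPM in replicate 2. Srsf2 (ENSMUSG00000034120.14; chromosome 11, 116849901 to 116853094), a marker protein of nuclear speckles, measured 458 and 423 TPM. The ranges of these genes overlapped between the pools, although Srsf3 was the higher in each library. Srsf5 (chromosome 12, 80945504 to 80950507) followed with 341 and 309 TPM, a range that overlapped neither neighbour.

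In the middle of the order stood Srsf7, Tra2b, Srsf1 and Srsf11. Srsf7 (chromosome 17, 80200080 to 80207307), an SR protein with a zinc knuckle, measured 230 and 211 TPM. Tra2b (chromosome 16, 22244549 to 22266005), a splicing activator that binds GAA-rich exons, measured 212 and 175 TPM, a range that overlapped that of Srsf7, with Tra2b the lower in each library. Srsf1 (chromosome 11, 88047373 to 88053755), a founding member of the family, measured 172 and 149 TPM. Srsf11 (chromosome 3, 158010473 to 158036639), a more distant relative of the classical members, measured 156 and 153 TPM, within the range of Srsf1 and in the opposite order in the 2 libraries. The lowest genes were Srsf6 (chromosome 2, 162931528 to 162937121) at 108 and 101 TPM, Srsf4 at 77.2 and 74.6 TPM and Tra2a at 65.2 and 67.3 TPM. Their ranges were separate from each other.

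**Figure D1:**
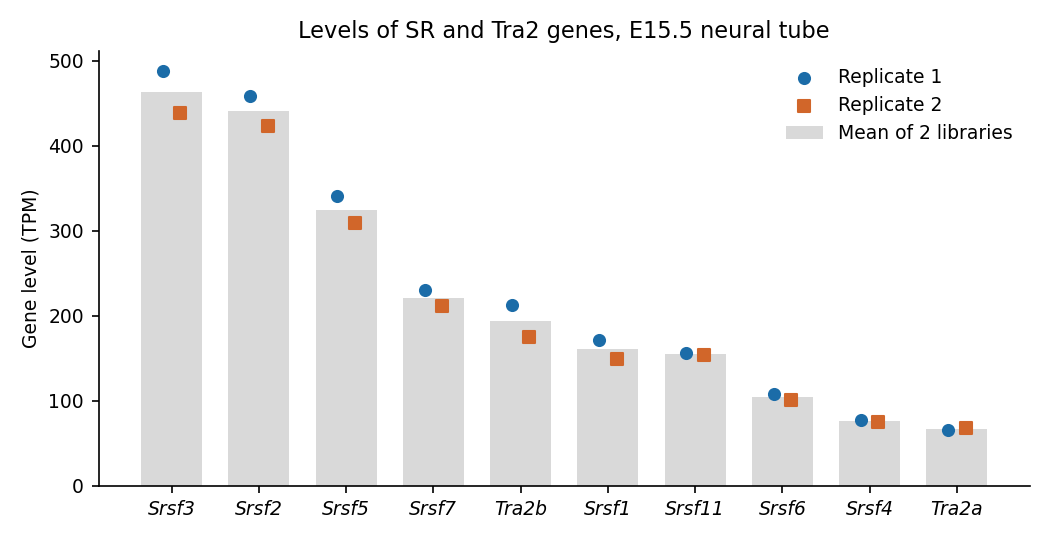
Gene level in TPM for the 10 genes, ordered by mean. Grey bars are the mean of 2 libraries, circles replicate 1 and squares replicate 2. Replicate 1 lies above replicate 2 for 9 of 10 genes, and Tra2a is the exception.

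The replicates differed little in these genes. On the log2(TPM + 1) scale, replicate 1 exceeded replicate 2 by 0.28 for Tra2b, 0.20 for Srsf1 and 0.15 for Srsf3, and by 0.03 to 0.14 for the 6 other genes that were higher in it. Tra2a had the opposite sign, at −0.05. None of the 10 reached an absolute log2 ratio of 1, beside 7.43% of the 17222 genes at 1 TPM or more in either library. For only 10 genes this count is near that percentage, so it does not set the family apart. The median was 0.12 over the 10 genes and 0.02 over those 17222. Summed over the family, the level was 2306 TPM in replicate 1 and 2101 TPM in replicate 2.

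The annotation shows how early stops enter these genes. In 7 of the 10 genes, GENCODE M21 (build GRCm38, the same assembly as the files' mm10) places the stop codon of a nonsense_mediated_decay transcript in a cassette exon that overlaps no exon of the gene's highest protein_coding transcript. There are 8 such exons, of 109 to 460 bases, against a median of 123 bases for 180116 internal exons of protein_coding transcripts. They are shown here because they carry the unproductive reading frame. Each stretch runs 5′ to 3′ on the transcript strand from the exon's first base through its stop codon, from the GENCODE M21 transcript sequences. The capitals mark the stop codon at the end and, where present, the hexamer GAAGAA.
Srsf3-201, chr17:29039454-29039487, plus strand: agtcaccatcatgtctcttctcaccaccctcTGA
Srsf6-201, chr2:162932815-162932966, plus strand: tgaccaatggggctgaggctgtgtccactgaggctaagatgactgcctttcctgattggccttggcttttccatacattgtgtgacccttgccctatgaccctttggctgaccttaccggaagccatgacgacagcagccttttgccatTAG
Srsf4-203, chr4:131884276-131884390, plus strand: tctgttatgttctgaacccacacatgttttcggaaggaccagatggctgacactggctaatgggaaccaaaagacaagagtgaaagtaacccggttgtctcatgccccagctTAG
Srsf11-206, chr3:158024209-158024231, minus strand: ttcttttccctggttcagccTGA
Srsf11-212, chr3:158023310-158023359, minus strand: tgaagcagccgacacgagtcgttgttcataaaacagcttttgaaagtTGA
Tra2b-206, chr16:22259181-22259261, minus strand: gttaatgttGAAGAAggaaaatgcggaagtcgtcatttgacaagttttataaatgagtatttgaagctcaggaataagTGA
Tra2a-202, chr6:49252965-49253108, minus strand: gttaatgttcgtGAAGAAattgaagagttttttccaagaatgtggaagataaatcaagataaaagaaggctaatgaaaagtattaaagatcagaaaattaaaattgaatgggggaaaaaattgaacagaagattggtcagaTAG
Srsf7-203, chr17:80205054-80205081, minus strand: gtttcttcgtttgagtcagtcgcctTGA
The stop lay within 34 bases of the exon's start in Srsf3-201, Srsf7-203 and Srsf11-206, and after 144 and 152 bases in Tra2a-202 and Srsf6-201.

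The Tra2 exons resembled each other. Both began with the same 9 bases, gttaatgtt, and both were rich in purines, which made up 68.3% of the whole exon in Tra2a-202 and 67.4% in Tra2b-206. The other 6 exons ranged from 35.8% to 53.0%. The hexamer GAAGAA, of the kind that Tra2 proteins are known to bind, occurred 4 times in the 306 bases of the Tra2a exon and 3 times in the 276 bases of the Tra2b exon, read on the transcript strand only and with overlapping matches counted. Srsf7-203 held 1 copy and the other 5 exons none. Among internal exons within 10% of the same length, 23.4% held at least 1 copy at the length of the Tra2a exon, 22.1% at that of Tra2b and 34.1% at that of Srsf7. A match is a description of the letters and not a measured binding site.

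**Figure D2:**
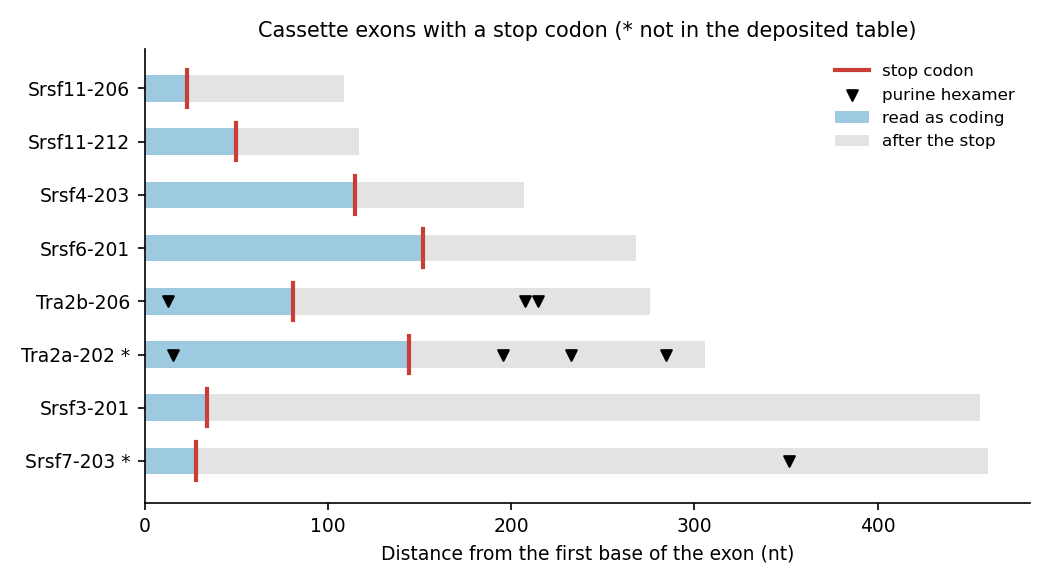
The 8 cassette exons drawn to scale from their first base, in nucleotides. Blue is the stretch read as coding, the red line the end of the stop codon, grey the rest of the exon, and triangles the GAAGAA copies; an asterisk marks transcripts outside the deposited table. Tra2a-202 holds 4 copies and Tra2b-206 holds 3.

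Over the 10 genes together, transcripts of the nonsense_mediated_decay and retained_intron biotypes, called unproductive below, held 36.1% of the TPM in replicate 1 and 35.6% in replicate 2. Retained_intron transcripts made up 22.9% and 22.2%, nonsense_mediated_decay transcripts 13.2% and 13.4%, and protein_coding transcripts 61.8% and 62.2%. Of the 8 genes with both a protein_coding and an unproductive transcript in the table, 6 had an unproductive share of 20% or more in both libraries: Srsf1, Srsf2, Srsf3, Srsf5, Srsf6 and Srsf11. The same held for 31.9% of the 6012 genes that had both kinds of transcript and reached 1 TPM in both libraries. The median share was 38.3% over the 8 genes and 11.8% over the 6012, with quartiles of 3.42% and 29.7%. The 6012 genes were not matched to the 8 for level or for number of annotated transcripts. Srsf11 and Srsf3, the highest of the 8, were exceeded by 479 and 573 of those genes, so such shares were not confined to this family. Srsf7 and Tra2a each had 1 transcript in the deposited table, and their share of 0 follows from the annotation and not from a measurement.

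**Figure D3:**
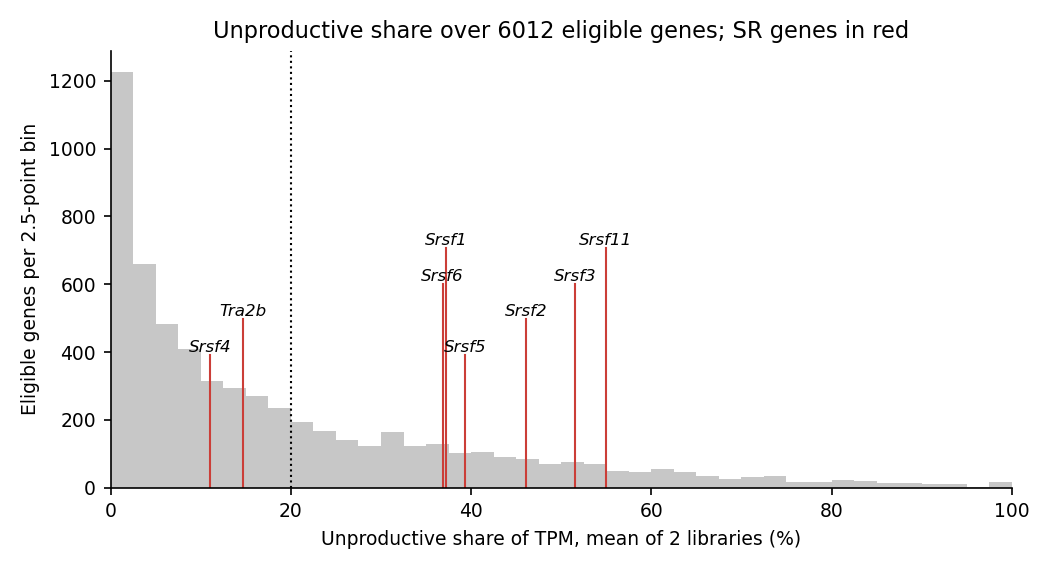
Unproductive share of TPM, mean of 2 libraries, over 6012 eligible genes (grey histogram, bins of 2.5 percentage points); red lines mark the 8 SR and Tra2 genes and the dotted line the 20% threshold. Srsf4 and Tra2b lie below the threshold, the other 6 above it.

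Transcripts overlapping a cassette exon held very different shares of their gene's TPM. Overlap here counts any shared base, and not only splicing of the exon as a cassette. In Srsf3, every unproductive transcript overlaps the cassette exon in the M21 models. Their share of the Srsf3 TPM was 54.9% in replicate 1 and 48.2% in replicate 2. Their share of its expected counts was 38.5% and 33.5%. The nonsense_mediated_decay transcript Srsf3-201 itself measured 43.1 and 36.8 TPM, or 8.84% and 8.38%. Most of the share was the retained_intron transcript Srsf3-205, at 199 and 151 TPM, which begins inside the cassette exon and runs through the following intron. The authors' interval for it was 182 to 206 TPM in replicate 1 and 137 to 157 TPM in replicate 2, without overlap. The protein_coding transcript Srsf3-202 measured 220 and 227 TPM. The deposited length of Srsf3-205 was 910 bases and its M21 length 2110 bases, so its extent in the authors' annotation was shorter than the model used here. Whether that shorter model reaches the cassette exon was not checked. The 3 other Srsf3 transcripts above 0 TPM also differ in length between the deposited table and M21.

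Srsf6, another classical SR protein, had the clearest poison exon transcript. Srsf6-201 measured 37.1 TPM in replicate 1 and 34.2 TPM in replicate 2, against 67.7 and 63.6 TPM for the protein_coding Srsf6-203. It held 34.5% and 33.9% of the gene's TPM and 19.5% and 19.2% of its expected counts. Its stop lay 534 bases before the last exon junction. Srsf6-202, annotated as protein_coding although it stops at the same codon of the cassette exon, was listed at 0 and 0.19 TPM.

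Tra2b and Srsf4 had lower unproductive shares. Tra2b-206, the poison exon transcript, measured 25.6 and 24.9 TPM, or 12.1% and 14.3% of the Tra2b TPM. Its stop lay 1015 bases before the last junction in the M21 model, whose length is 1687 bases against a deposited length of 1590. The protein_coding Tra2b-204 measured 95.95 and 80.7 TPM. Counting every transcript that overlaps the cassette exon, which adds the processed transcript Tra2b-202 and the retained_intron Tra2b-203, gave 20.8% and 25.2% of TPM and 11.9% and 14.1% of expected counts. Thus the TPM share of Tra2b passed 20% by overlap with the exon but not by the biotypes. In Srsf4 (chromosome 4), both transcripts with the cassette exon, Srsf4-203 and Srsf4-204, together held 9.80% and 9.27% of TPM, and the protein_coding Srsf4-202 measured 68.2 and 66.9 TPM.

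**Figure D4:**
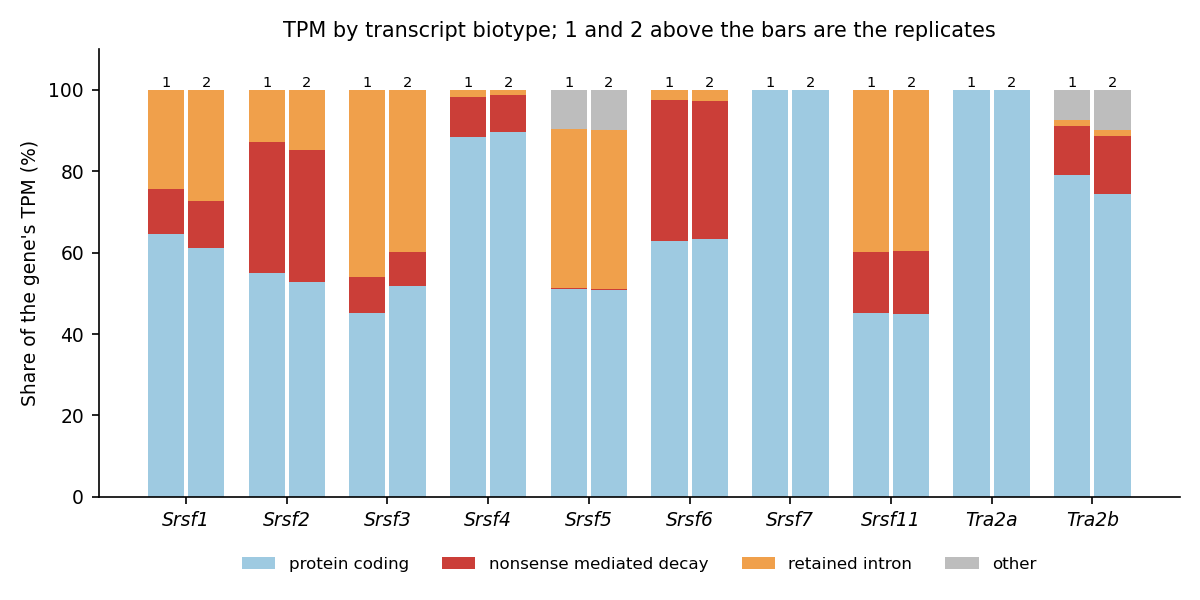
Share of each gene's TPM, in percent, by transcript biotype; the paired bars are replicates 1 and 2. Srsf2 and Srsf6 have the widest nonsense_mediated_decay segments, Srsf3, Srsf5 and Srsf11 the widest retained_intron segments, and Srsf7 and Tra2a have only protein_coding transcripts in the table.

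Srsf11 used 2 cassette exons and had the highest mean unproductive share of TPM, with 54.8% in replicate 1, where Srsf3 stood at 54.9%, and 55.1% in replicate 2. By expected counts its mean share was 44.6%, below the 56.8% of Srsf5. Srsf11-206 holds both exons and stops in the upstream exon, 456 bases before the last junction; it measured 16.5 and 15.7 TPM. Transcripts overlapping the upstream exon held 25.9% and 26.9% of the Srsf11 TPM, and those overlapping the downstream exon 20.3% and 19.9%. Because Srsf11-206 counts in both, these shares do not add. Most of the upstream share was Srsf11-203, at 14.8% and 16.3% of TPM. Its frame, read from the start codon of Srsf11-202, stops before that exon is reached. The retained_intron transcripts Srsf11-203 (23.1 and 25.0 TPM) and Srsf11-208 (26.2 and 24.9 TPM) were more abundant than Srsf11-206, and the protein_coding Srsf11-202 measured 55.6 and 50.6 TPM.

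In Srsf5, a classical SR protein, almost all unproductive TPM was assigned to Srsf5-212, a model that retains intron 5. Reads over the intron and across its junctions were not examined, so retention itself was not measured. Srsf5-212 keeps this intron (chr12:80947866-80949094, 1229 bases) and measured 131 and 119 TPM, above the highest protein_coding transcript, Srsf5-201, at 90.8 and 84.2 TPM. It held 38.4% and 38.3% of the gene's TPM and 55.3% and 55.5% of its expected counts. The 5 protein_coding transcripts together measured 174 and 157 TPM. They held 51.2% and 50.8% of TPM and 40.1% and 40.0% of expected counts. Reading from the start codon of Srsf5-201, the frame stops 9 bases into the intron, after 124 of 269 codons. The stop is in capitals in the intron's opening bases.
Srsf5-212, chr12:80947866-80947874, plus strand: gtttgtTGA
The other unproductive Srsf5 transcripts were low: the nonsense_mediated_decay Srsf5-208 measured 0.32 and 1 TPM, and Srsf5-207 and Srsf5-209 together stayed below 1% of TPM on average. Transcripts of other biotypes, not counted as unproductive here, held 9.61% and 9.79% of the Srsf5 TPM.

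The M21 model of Srsf3-204 also keeps whole introns, namely the intron that contains the cassette exon and the intron after it. Srsf3-204 measured 25.7 and 24.0 TPM, and here too reads over the introns were not examined. Its frame, read from the start codon of Srsf3-202, stops 49 bases into the earlier of these introns, after 129 of 164 codons, and so before the cassette exon is reached.
Srsf3-204, chr17:29038625-29038673, plus strand: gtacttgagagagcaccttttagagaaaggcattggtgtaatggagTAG
Only 6 of the 20 retained_intron transcripts of these genes hold a whole intron of the gene's highest protein_coding transcript: Srsf2-203, Srsf3-204, Srsf5-207, Srsf5-209, Srsf5-212 and Srsf6-204. The other 14, Srsf3-205, Srsf1-203, Srsf11-203 and Srsf11-208 among them, hold none. These 14 held 58.3% of the retained_intron TPM in replicate 1 and 54.8% in replicate 2.

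Srsf2 and Srsf1 have no cassette exon of this kind. Srsf2-204 stops at the same codon as the protein_coding Srsf2-201 and has exon junctions after it, the last of them 113 bases past the stop. It measured 148 TPM in replicate 1 and 132 TPM in replicate 2, against 249 and 223 TPM for Srsf2-201, which itself has a junction 7 bases after the stop. Srsf2-203 retains the 1059-base intron that follows this junction and measured 58.2 and 62.9 TPM. In all, 45.0% and 47.2% of the Srsf2 TPM was unproductive by biotype. Srsf2-204 keeps the usual stop, and the intron in Srsf2-203 lies after that stop, so the label here does not mark an early stop. The nonsense_mediated_decay Srsf2-202 and the protein_coding Srsf2-206 both stop at this codon, 217 bases before the last junction.

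In Srsf1, the unproductive share was 35.5% and 38.9% of TPM but 10.2% and 11.4% of expected counts. Srsf1-204 removes the stop codon of Srsf1-201 by splicing inside what is the last exon of that transcript, and reads into another stop 80 bases before the last junction. The stretch from that junction through this stop, in capitals, is the same in Srsf1-204 and Srsf1-207.
Srsf1-204, chr11:88049977-88050015, plus strand: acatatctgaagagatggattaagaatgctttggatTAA
Srsf1-204 measured 19.1 and 17.3 TPM. The retained_intron Srsf1-203, at 37.7 and 36.2 TPM, starts beyond the coding stop of Srsf1-201. The protein_coding Srsf1-201 and Srsf1-205 measured 62.3 and 34.1 TPM in replicate 1 and 50.3 and 29.4 TPM in replicate 2.

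Across the 13 nonsense_mediated_decay transcripts in the table, the stop lay 67 to 1015 bases before the last junction of the M21 model, with a median of 251. The longest distance is that of Tra2b-206, whose deposited length differs from its M21 length. In 9 of the 10 highest protein_coding transcripts the stop was in the last exon, and Srsf2-201 was the exception.

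The size of most shares depended on whether TPM or expected counts were used. TPM divides by transcript length, and the unproductive models are shorter, with a median deposited length of 896 bases for nonsense_mediated_decay and 1342.5 for retained_intron against 1749 for protein_coding. Srsf2-204, of 620 bases, held 31.8% of the Srsf2 TPM and 12.0% of its counts on average. For Srsf1-203, of 759 bases, the values were 23.1% and 6.40%, and for Srsf3-205 they were 37.6% and 16.4%. The reverse held for the long models Srsf5-212 (38.4% of TPM, 55.4% of counts), Srsf11-208 (16.5% and 20.4%) and Srsf3-204 (5.37% and 11.2%). By expected counts, 5 of the 8 genes kept a share of 20% or more in both libraries, with Srsf1 below it, beside 21.2% of the 6012 genes. With nonsense_mediated_decay transcripts alone, the count was 2 of 8, Srsf2 and Srsf6, beside 7.60%. With retained_intron transcripts alone it was 4 of 8, Srsf1, Srsf3, Srsf5 and Srsf11, beside 23.3%.

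**Figure D5:**
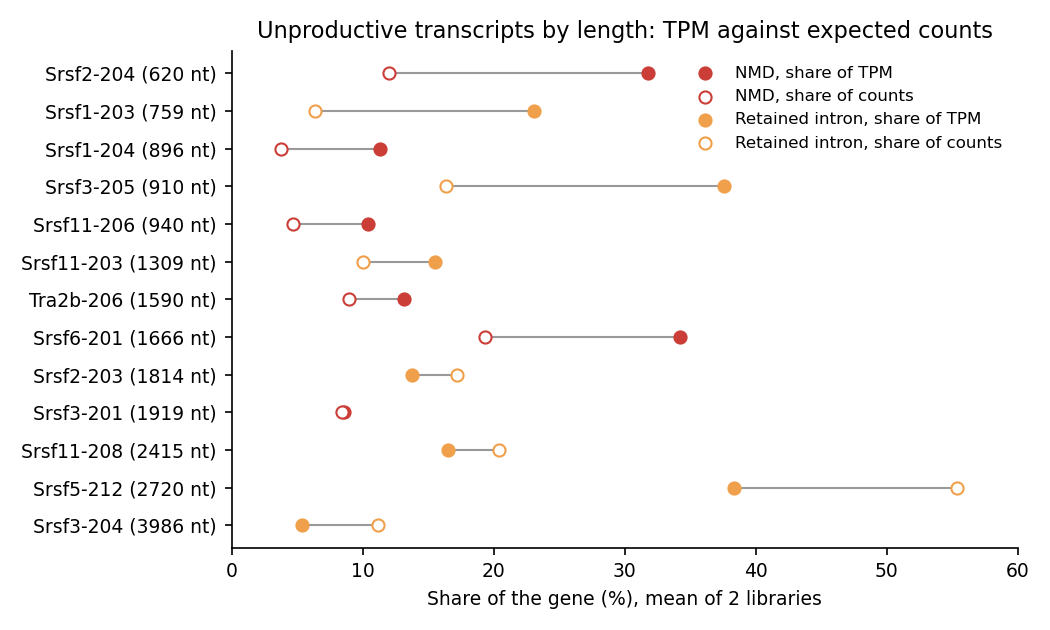
Share of the gene, in percent and as the mean of 2 libraries, for the 13 unproductive transcripts with at least 5% of their gene's TPM in both libraries, ordered by deposited length. Filled points are shares of TPM and open points shares of expected counts; red is nonsense_mediated_decay and orange retained_intron. Models up to the 1666 bases of Srsf6-201 have the higher share by TPM, and all longer models but Srsf3-201 have the higher share by counts.

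Between the libraries, the unproductive share differed most in Srsf3, at −6.75 percentage points for replicate 2 minus replicate 1. The same difference was 3.42 points in Srsf1, 2.21 in Tra2b and 2.13 in Srsf2, and lay between −1.23 and 0.23 in the other 4 genes. The median absolute difference was 1.68 points over the 8 genes and 1.92 over the 6012, and the 90th percentile over the 6012 was 9.01 points.

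Related genes were read the same way. The kinases that phosphorylate SR proteins, together with Tnpo3, the importin that carries them into the nucleus, had a share of 20% or more in 5 of 7 eligible genes of the 10 listed, beside 31.9% of the 6012, with a median of 36.9% beside 11.8%. In this list Clk1, at 130 TPM in both libraries, had 69.7% and 71.9% unproductive TPM, Clk4 (96.9 and 101 TPM) 46.8% in each library, and Srpk1 (67.9 and 69.5 TPM) 11.9% and 11.5%; the lowest by level was Srpk3, at 2.96 and 3.95 TPM. Clk1 thus exceeded every SR gene in unproductive share of TPM, the only unit read for these lists. Among factors of nonsense-mediated decay and the exon junction complex, 2 of 6 eligible genes of 16 reached 20%, a proportion near those 31.9%. Eif4a3 (231 and 199 TPM), Magoh (98.9 and 86.3 TPM) and Rbm8a (71.6 and 70.8 TPM), parts of the complex that marks exon junctions, were the most abundant while Upf2, at 6.64 and 5.98 TPM, was the least.

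Among hnRNP genes, whose proteins often oppose SR proteins in splicing, 2 of 8 eligible genes of 14 reached 20%, near the 31.9% over all eligible genes. The most abundant were Hnrnpk (1006 and 940 TPM, unproductive share 28.9% and 27.2%), Hnrnpa2b1 (661 and 548 TPM) and Hnrnpa1 (477 and 458 TPM), and the least was Hnrnpu (66.6 and 64.7 TPM). Among other splicing factors with serine-arginine-rich stretches, 3 of 6 eligible genes of 12 did so, beside the same 31.9%. This list was led in level by Srrm2 (340 and 355 TPM, share 5.05% and 4.55%), Rnps1 (212 and 216 TPM) and U2af1 (171 and 136 TPM), with Srek1 lowest (28.9 and 27.9 TPM). The remaining SR genes, Srsf10 (146 and 128 TPM), Srsf9 (136 and 122 TPM) and Srsf12 (57.8 and 61.2 TPM), had no unproductive transcript in the table and could not be scored.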

How the data were processed

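Total RNA was sequenced from 2 replicate libraries. Deposited for each were gene and transcript tables that the authors made from transcriptome alignments to mm10 with GENCODE M4, per the labels' notes. The sources used here do not name the aligner, quantifier or strand setting. Columns used, per the file headers, are the expected count, the TPM, the percent of gene abundance that each transcript takes, and interval bounds of TPM, treated as a score because their confidence level is not stated. The summed deposited percent values differed from shares of TPM by at most 0.0174 points. From these files, genes and transcripts were matched by ID without version to GENCODE M21, which supplied names, biotypes, exon models and sequences: 42462 genes matched and 884 did not. Of the 60 transcripts, 10 have another length in M21, and 24 of the 84 in M21 are not in the deposited tables. Detection required 1 TPM in both libraries. Genes entered the share count if they also had a protein_coding and an unproductive transcript. The log2 ratio used a pseudocount of 1 TPM. Cassette exons were listed where they hold the annotated stop of a nonsense_mediated_decay transcript. Named were all members, their highest protein_coding transcript, unproductive transcripts with at least 5% of TPM in both libraries (at most the 3 highest per biotype), and the 3 highest and the lowest gene of each list; other transcripts were named where an exon or a count turned on them, after their values were seen. The members and lists were chosen with earlier results of these data known. Expected counts, rounded, were scaled with edgeR 4.0.16 and DESeq2 1.42.0 in R 4.3.3 as alternatives; the rest ran in Python 3.11.15 with pandas 2.3.3. The share calculation was tested on simulated data.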

Additional observations from a re-analysis of the deposited data

How the results depend on the processing

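The summed unproductive share of 35.8% became 26.5% with expected counts, 13.3% with nonsense_mediated_decay transcripts only and 38.0% with every biotype other than protein_coding. With alternatives chosen after seeing the data it became 38.2% without the transcripts whose length differs in M21 and 41.2% over genes with more than 1 transcript. The former setting removes, among others, the only transcripts of Srsf7 and Tra2a, all Srsf3 transcripts above 0 TPM and the protein_coding Srsf11-202. The number of genes at 20% or more, 6, became 2 with nonsense_mediated_decay transcripts only and 1 (Srsf11) at a threshold of 50%, beside 8.80% of the 6012 eligible genes. It became 8 at a threshold of 10%, beside 49.5%, and 7 with every biotype other than protein_coding, beside 40.9%. It became 5 without the transcripts whose length differs in M21, because every Srsf3 transcript above 0 TPM is among them. The percentage over the eligible genes was not obtained for this setting, so this count has no background beside it. Leaving out each replicate gave shares of 35.6% and 36.1%, 6 genes each time, and summed levels of 2101 and 2306 TPM. The 30 log2 ratios under another pseudocount or scaling ran from −0.09 to 0.28, and 0 reached 1. Of all genes, 2.95% reached 1 with no filter on low values in place of 7.43%. No paired analysis was possible because there is a single group. Reads shared between transcripts of a gene are divided by the authors' quantifier, so short models such as Srsf1-203 rest on this division. With 2 pools, the spread is itself poorly known.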
